A study of Mus musculus with 12 samples.

Results

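The immediate early and stress transcription factors and related stress and feedback genes were examined in the epididymal white adipose tissue (eWAT) of diet-induced obese mice. The set holds 10 genes, *Atf3*, *Fos*, *Fosb*, *Jun*, *Junb*, *Egr1*, *Ier3*, *Dusp1*, *Zfp36* and *Myc*, chosen by name among the 22923 genes of the mRNA-Seq table, and all 10 were among the 12766 genes that were tested. Male C57BL/6J mice aged 21 weeks had been fed for 16 weeks with a normal diet (ND), a high-fat diet (HFD), the HFD with 1.5% (w/w) of an ethanol extract of chrysanthemum leaf (CLE), or the HFD with 0.003% (w/w) luteolin (LU), a flavone that the extract also contains. The CLE and LU mice thus received the HFD as well, and the doses of the 2 supplements differed. Each group gave 3 libraries, 1 per mouse, from mice that were selected as representative, and the RNA was taken from the whole fat pad after a fast and under isoflurane. Expression was given as FPKM (fragments scaled for transcript length and for sequencing depth), so that levels can be set side by side between genes.

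Immediate early genes are transcribed within minutes of a stimulus from promoters that are held ready, and their short-lived mRNAs need no new protein to appear. FOS, FOSB, JUN and JUNB pair to form the AP-1 factor, and ATF3 is a stress-induced member of the ATF/CREB family that binds cAMP response elements (CRE) and can dimerize with JUN. EGR1 is a zinc finger factor induced through serum response factor, and MYC drives growth and ribosome genes. DUSP1 and ZFP36 act as brakes. DUSP1 is a phosphatase that switches off MAP kinases, and ZFP36 (tristetraprolin) speeds the decay of mRNAs with AU-rich elements. IER3 is a stress-inducible regulator of survival signalling. In fat tissue, these genes are known from adipocytes as well as from macrophages and endothelial cells.

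The promoters are shown because the members share short elements there that the choice of genes did not use. RefSeq promoter sequences (GRCm38.p6) were matched by symbol for 8 of the 10 genes, and *Egr1* and *Myc* had no entry. The 250 bases before the RefSeq start site were searched on both strands, and positions are counted from that start. The Ensembl transcripts of the table begin further out than this start, by 7 bases in *Atf3*, 27 in *Zfp36*, 29 in *Ier3* and 47 in *Dusp1*, and the *Dusp1* stretch shown ends before its Ensembl transcript. Capitals mark the matches within the stretch shown, which is the CRE (TGACGTCA) or its 5-base core (TGACG, which also lies within the CRE), the EGR site (GCGGGGGCG), the CArG box of serum response factor or the NF-kB site. Each line is read 5′ to 3′ on the strand of the gene. The windows are chr1:191183334-191183483 (minus strand) for *Atf3*, chr12:85473740-85473889 (plus strand) for *Fos*, chr7:28379229-28379378 (minus strand) for *Zfp36*, chr17:26508520-26508622 (minus strand) for *Dusp1* and chr17:35821563-35821712 (plus strand) for *Ier3*.
Atf3: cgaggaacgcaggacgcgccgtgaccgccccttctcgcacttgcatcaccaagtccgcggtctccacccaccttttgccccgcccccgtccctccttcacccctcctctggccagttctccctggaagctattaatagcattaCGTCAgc
Fos: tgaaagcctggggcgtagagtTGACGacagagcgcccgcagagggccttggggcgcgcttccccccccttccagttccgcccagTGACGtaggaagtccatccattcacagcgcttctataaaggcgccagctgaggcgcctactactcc
Zfp36: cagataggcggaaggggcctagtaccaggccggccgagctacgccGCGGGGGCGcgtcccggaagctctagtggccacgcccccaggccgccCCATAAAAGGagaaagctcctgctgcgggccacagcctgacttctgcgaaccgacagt
Dusp1: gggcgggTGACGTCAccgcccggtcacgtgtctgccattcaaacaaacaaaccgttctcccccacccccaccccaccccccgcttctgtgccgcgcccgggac
Ier3: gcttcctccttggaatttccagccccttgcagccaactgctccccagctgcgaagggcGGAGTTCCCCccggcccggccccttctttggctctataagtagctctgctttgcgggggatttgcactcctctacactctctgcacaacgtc
The CRE core was found in 5 of the 8 promoters, those of *Atf3*, *Fosb*, *Junb*, *Fos* and *Dusp1*, and in 17.8% of all 32851 promoters of the same length. The full CRE was found only in *Dusp1* among these 8 (1.55% of all promoters), 143 to 136 bases before the RefSeq start. In *Atf3*, the core lay on the opposite strand, 7 to 3 bases before the RefSeq start and thus inside the Ensembl transcript. *Fos* held 2 copies of the core, 129 to 125 and 66 to 62 bases before the RefSeq start. The EGR site was found in *Fosb* and *Zfp36* (2.57% of all promoters), and the CArG box in *Zfp36* (1.47%). The NF-kB site was found in *Fosb*, *Fos* and *Ier3* (3.90%), and in *Ier3* it lay 92 to 83 bases before the RefSeq start. The AP-1 site TGACTCA was found in 0 of the 8 (4.46%). These matches are descriptions of the letters in the window, not of bound sites.

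The 12 libraries were closely alike within groups, with Pearson's r across genes from 0.978 to 0.992 and summed gene levels from 435095 to 455040 FPKM. Sequencing depth is unknown, since the values are not counts. Markers of adipocytes were abundant in every library, with a summed level of 8 markers from 15740 to 27677 FPKM. The letter R stands in the titles of 4 libraries, those of CLE mouse 4, LU mouse 2 and ND mice 3 and 4, and in none of the HFD group.

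Among the 10 genes, *Atf3* and *Fos* rose with the HFD and *Ier3* fell, whereas the other 7 did not pass the test, which asked for a limma adjusted p below 0.05 together with a change of more than 1.5-fold on the log2(FPKM + 1) scale. Thus 3 of 10 were called between HFD and ND, beside 25.6% of all genes tested, so the set as a whole was not changed more often than genes at large. With CLE, *Atf3* was lower and *Ier3* higher than in the HFD group (2 of 10 called, beside 16.5% of all genes). With LU, *Atf3* and *Fos* were lower and *Ier3* higher (3 of 10, beside 12.4%). None of the 10 was called between CLE and LU (0.00783% of all genes). Against ND, 3 were called higher in the CLE group (*Fos*, *Junb* and *Egr1*, beside 2.92% of all genes) and 2 in the LU group (*Atf3* and *Fos*, beside 6.60%), and none lower in either. The contrasts share the HFD mice or the ND mice, and their values are therefore given side by side.

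The ranges of the 3 mice did not overlap in 4 of 10 genes between HFD and ND (59.5% of all genes), in 5 between CLE and HFD (50.6%) and in 6 between LU and HFD (47.7%). They did not overlap in 0 of 10 between CLE and LU (9.03%), in 4 between CLE and ND (24.7%) and in 4 between LU and ND (30.1%). For any single gene, the two-sided exact permutation test of 3 mice against 3 cannot give a p below 0.1. The median log2 fold change of the 10 genes was 0.14 between HFD and ND, 0.24 between CLE and HFD and 0.16 between LU and HFD, while that of all genes tested was -0.019, 0.0051 and 0.031.

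**Figure D1:**
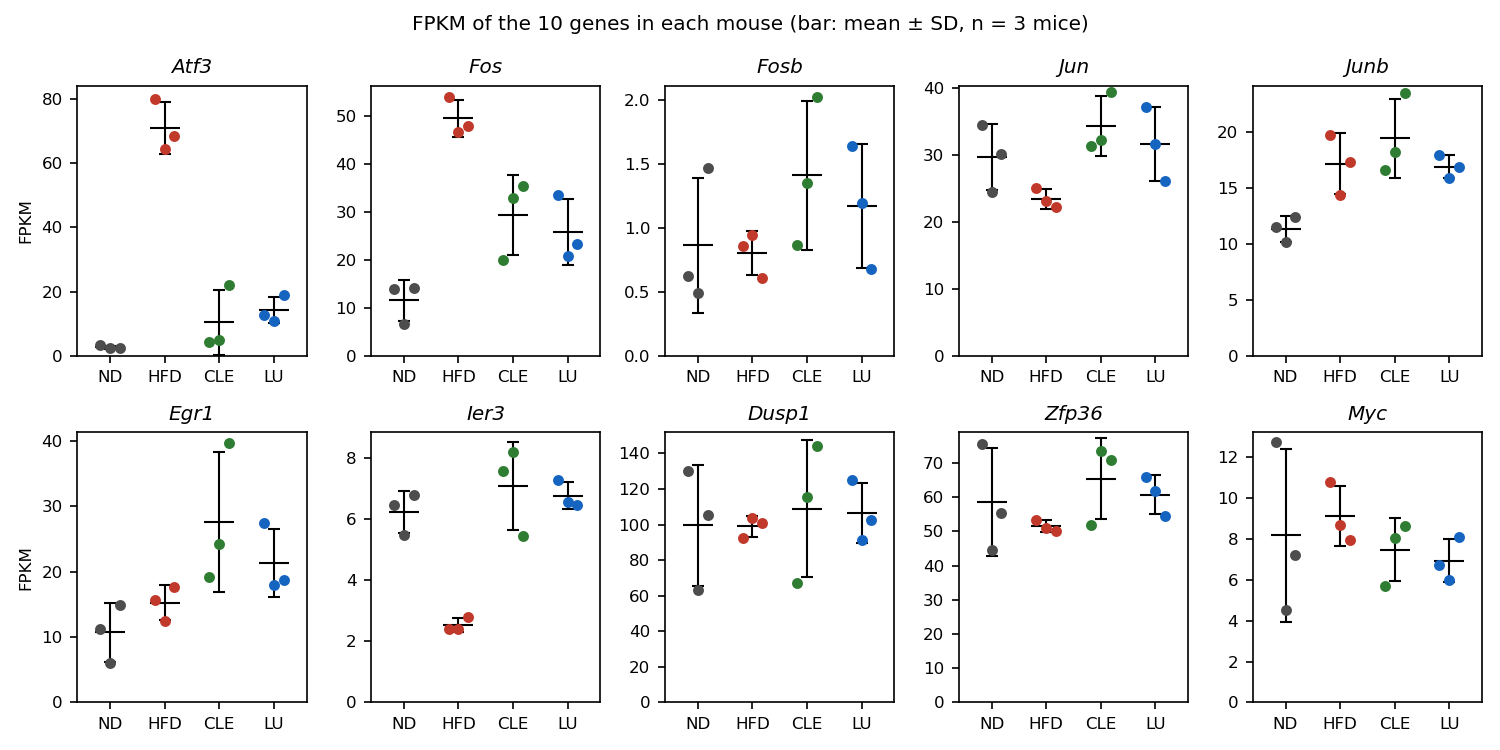
FPKM (linear axis from 0) of the 10 genes in each mouse, with the 4 groups on the x axis, 1 point per mouse and bars for the mean ± SD (n = 3). *Atf3* and *Fos* sit highest in the HFD mice (64.5 to 80.1 and 46.6 to 53.8 FPKM), *Ier3* sits lowest there (2.40 to 2.81 FPKM), and the ranges of *Dusp1* and *Myc* overlap between all groups.

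*Atf3* (chromosome 1, 191170296 to 191183340, minus strand in the Ensembl transcripts of the table, which match GRCm38) showed the widest range of the 10 genes. It was 3.25, 2.53 and 2.42 FPKM in ND mice 2, 3 and 4, and 80.1, 64.5 and 68.5 FPKM in HFD mice 12, 15 and 18. In the CLE group it was 4.23, 4.81 and 22.2 FPKM in mice 2, 4 and 11, and in the LU group 12.8, 11.01 and 19.0 FPKM in mice 2, 3 and 8. Every HFD mouse was above every other mouse, every ND mouse was below every other mouse, and CLE mouse 11 lay above the LU mice while CLE mice 2 and 4 lay below them. The mean FPKM was 26.0-fold higher in HFD than in ND. On the log2(FPKM + 1) scale of the test, the log2 fold change was 4.27, a fold of 19.3 (SE 0.44, limma adjusted p = 1.47e-05). Compared with HFD, the log2 fold change was -3.01 in CLE (SE 0.44, adjusted p = 0.000398) and -2.27 in LU (SE 0.44, adjusted p = 0.00356). Both supplemented groups remained above ND without overlap, and the difference passed the test for LU (log2 fold change 2.004, adjusted p = 0.0133) but not for CLE (1.26, adjusted p = 0.114, and 0.57 without CLE mouse 11). The LU call against ND was lost without LU mouse 8 (adjusted p = 0.0587) and when the libraries with the letter R were left out (adjusted p = 0.172) or no filter on low values was used (0.0663). CLE differed from LU by -0.74 (95% interval -1.71 to 0.22, adjusted p = 0.891), and by -1.44 without CLE mouse 11 (adjusted p = 0.0649).

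The *Atf3* signal came almost wholly from annotated transcripts. The transcript ENSMUST00000027941 made up 90.9% of the gene's mean level over the 12 libraries, with group means of 2.69 FPKM in ND, 64.3 in HFD, 9.47 in CLE and 13.0 in LU. The transcript ENSMUST00000131854 made up 8.37%, with 0.0130, 6.32, 0.707 and 1.20 FPKM in the same order. The order of the groups was thus HFD, LU, CLE and ND in both transcripts.

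*Fos* (chromosome 12, 85473890 to 85477273, plus strand), the AP-1 subunit most often read as a sign of recent stimulation, rose with the HFD. It was 14.01, 6.63 and 14.05 FPKM in the ND mice and 53.8, 46.6 and 47.9 FPKM in the HFD mice. In the CLE mice it was 19.9, 32.8 and 35.4 FPKM, and in the LU mice 33.6, 20.7 and 23.2 FPKM. The CLE and LU mice overlapped with each other and lay between the ND and HFD mice without overlap with either. The log2 fold change between HFD and ND was 2.07 (SE 0.28, adjusted p = 0.000106). *Fos* was lower in LU than in HFD (log2 fold change -0.94, SE 0.28, adjusted p = 0.0292), whereas CLE, at -0.77 (SE 0.28, adjusted p = 0.0537), did not pass the test. Against ND, it was higher in CLE (1.30, adjusted p = 0.0269) and in LU (1.13, adjusted p = 0.0224). Apart from the rise with the HFD, these calls changed with single libraries or with the fit. The LU call against HFD was lost without HFD mouse 12, 15 or 18 or LU mouse 3 or 8 (adjusted p from 0.0596 to 0.107) and with no filter on low values (0.101), while the CLE difference from HFD was called without ND mouse 3, CLE mouse 11 or LU mouse 2 (adjusted p from 0.0177 to 0.0498). With all 12 libraries kept, the CLE difference from HFD was also called with scaling by median ratios (adjusted p = 0.0451), with a trend in the moderation (0.0486) and with array weights (0.0257), and it was called in a fit of these 2 groups alone (0.0248) and without the libraries of the letter R (0.0277). The CLE call against ND was lost without ND mouse 2 or 3 or CLE mouse 4 or 11 (adjusted p from 0.0511 to 0.0951), and the LU call against ND without ND mouse 3 or LU mouse 2 or 8 (adjusted p from 0.0561 to 0.0852). Without the libraries that carry the letter R, neither call against ND was made (adjusted p = 0.163 for CLE and 0.238 for LU). Neither was made with no filter on low values (0.0983 and 0.0911) or in fits of the 2 groups alone (0.1155 and 0.0585).

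The *Fos* difference was unevenly divided among its transcripts. The annotated transcript ENSMUST00000021674 was 2.95 FPKM in ND, 29.8 in HFD, 9.07 in CLE and 10.8 in LU (group means), so that CLE and LU lay closer to ND than in the summed value. The isoforms that Cufflinks had assembled and that only shared a splice junction with annotated ones summed to 6.23 FPKM in ND, 10.95 in HFD, 13.7 in CLE and 9.97 in LU. They made up 18.3 to 26.1% of *Fos* in the HFD mice and 42.1 to 50.7% in the CLE mice. When *Fos* was taken as this annotated transcript alone, the difference between CLE and HFD was -1.75 (adjusted p = 0.00536), and without the assembled isoforms it was -1.28 (adjusted p = 0.00719), both called. With the annotated transcript alone, however, the CLE call against ND was lost (log2 fold change 1.27, adjusted p = 0.0902). The division of fragments among overlapping isoforms is an estimate, and which value is nearer to the true level was not tested.

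*Fosb* (chromosome 7, 19302721 to 19310045, minus strand) was near the limit of detection, with 0.495 to 2.03 FPKM over the 12 libraries and at least 1 FPKM in 5 of them. Its log2 fold change between HFD and ND was -0.014 (95% interval -0.51 to 0.48), and its groups overlapped in every comparison. *Jun* (chromosome 4, 95049034 to 95052222, minus strand), the main partner of FOS, was lowest in the HFD group. It was 34.5, 24.6 and 30.1 FPKM in the ND mice, 25.1, 23.1 and 22.2 in the HFD mice, 31.4, 32.2 and 39.5 in the CLE mice and 37.3, 31.7 and 26.2 in the LU mice. The HFD mice overlapped with ND mouse 3 and lay below all CLE and LU mice. The log2 fold change was -0.32 between HFD and ND (adjusted p = 0.0944), 0.53 between CLE and HFD (adjusted p = 0.0179, but a fold of 1.44) and 0.41 between LU and HFD (adjusted p = 0.0619). No *Jun* difference was called, and the one between CLE and HFD was called without CLE mouse 2 (log2 fold change 0.59, adjusted p = 0.0263). The annotation holds an antisense gene, *Junos*, over *Jun*, and no strand was stated for the counting.

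*Junb* (chromosome 8, 84976909 to 84978748, minus strand), an AP-1 subunit that often tempers JUN, was lowest in ND. It was 11.5, 10.1 and 12.4 FPKM in the ND mice, 19.8, 14.3 and 17.4 in the HFD mice, 16.6, 18.2 and 23.4 in the CLE mice and 17.97, 15.9 and 16.9 in the LU mice. All 9 mice on the HFD, with or without a supplement, lay above all ND mice, and the 3 HFD-fed groups overlapped. The log2 fold change against ND was 0.55 in HFD (SE 0.14, adjusted p = 0.00676), 0.72 in CLE (SE 0.14, adjusted p = 0.0189) and 0.54 in LU (SE 0.14, adjusted p = 0.0274). The CLE difference alone passed the fold of 1.5, and it was lost without ND mouse 2 or 3 or CLE mouse 11 (adjusted p from 0.0537 to 0.0603), or without the libraries of the letter R (0.151). This call was also lost with no filter on low values (0.0646) and in a fit of CLE and ND alone (0.0975). The HFD difference reached the fold without ND mouse 4 (0.61) or HFD mouse 15 (0.67), and the LU difference without ND mouse 4 (0.60). CLE and LU differed from HFD by 0.17 and -0.010 (95% intervals -0.14 to 0.47 and -0.32 to 0.30).

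*Egr1* (chromosome 18, 34859823 to 34864984, plus strand) followed another order than *Atf3* and *Fos*. It was 11.3, 5.95 and 14.9 FPKM in the ND mice, 15.6, 12.4 and 17.7 in the HFD mice, 19.1, 24.1 and 39.6 in the CLE mice and 27.4, 17.96 and 18.6 in the LU mice. Every CLE and LU mouse lay above every ND and HFD mouse, and the ND and HFD mice overlapped. The log2 fold change was 0.54 between HFD and ND (adjusted p = 0.172), 0.77 between CLE and HFD (SE 0.31, adjusted p = 0.0792) and 0.45 between LU and HFD (SE 0.31, adjusted p = 0.316). Against ND, it was 1.30 in CLE (adjusted p = 0.0382, called) and 0.99 in LU (adjusted p = 0.0600, not called). The CLE difference from HFD was called without ND mouse 3 or CLE mouse 2 (adjusted p = 0.0367 and 0.0482), and the LU difference from ND without ND mouse 4 or CLE mouse 11 (adjusted p = 0.0300 and 0.0374). The CLE call against ND was lost without ND mouse 2 or 3, CLE mouse 4 or 11, or any of the HFD mice (adjusted p from 0.0532 to 0.120), or without the libraries of the letter R (0.143). With all libraries kept, it was lost with no filter on low values (0.127), array weights (0.0795) or the letter R as a covariate (0.0597). It was also lost in a fit of CLE and ND alone (0.133) and with the transcript of the highest mean (0.0597). In *Egr1*, as in *Fos*, the assembled isoform took a smaller share in the HFD mice (9.42 to 12.2%) than in the CLE mice (27.5 to 30.2%). Without it, the rise with the HFD was 0.83 (adjusted p = 0.0476) and was called, while the CLE call against ND was lost (adjusted p = 0.0555).

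*Myc* (chromosome 15, 61985341 to 61990374, plus strand) was 12.8, 4.51 and 7.24 FPKM in the ND mice, 10.8, 8.70 and 7.96 in the HFD mice, 5.72, 8.07 and 8.66 in the CLE mice and 6.74, 6.00 and 8.11 in the LU mice. The ND mice alone spanned the range of all the others. The log2 fold change was 0.24 between HFD and ND (95% interval -0.36 to 0.83), -0.27 between CLE and HFD (-0.86 to 0.33) and -0.35 between LU and HFD (-0.94 to 0.24), and none was called. The sign of the value between HFD and ND turned without ND mouse 3 (-0.080).

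*Ier3* (chromosome 17, 35821684 to 35822923, plus strand) moved against *Atf3*. It was 6.46, 5.47 and 6.78 FPKM in the ND mice, 2.41, 2.40 and 2.81 in the HFD mice, 7.59, 8.20 and 5.46 in the CLE mice and 7.28, 6.56 and 6.47 in the LU mice. The HFD mice lay below all others, and the ND, CLE and LU mice overlapped. It fell with the HFD (log2 fold change -1.03, SE 0.13, adjusted p = 5.75e-05), and compared with HFD it was higher in CLE (1.18, SE 0.13, adjusted p = 6.29e-05) and LU (1.13, SE 0.13, adjusted p = 0.000203). These 3 calls held under each of the 25 alternatives run. CLE and LU differed from ND by 0.15 and 0.10 (95% intervals -0.13 to 0.43 and -0.18 to 0.39).

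*Dusp1* and *Zfp36* were the most abundant of the 10 genes and were called in none of the comparisons. *Dusp1* (chromosome 17, 26505590 to 26508519, minus strand) was 130.0, 63.1 and 105.6 FPKM in the ND mice, 92.2, 103.7 and 101.2 in the HFD mice, 67.4, 115.4 and 143.9 in the CLE mice and 124.9, 91.4 and 102.9 in the LU mice. The groups overlapped in all comparisons, and the log2 fold change was 0.052 between HFD and ND, 0.070 between CLE and HFD and 0.092 between LU and HFD (95% intervals -0.57 to 0.67, -0.55 to 0.69 and -0.52 to 0.71). The sign of each of these turned under at least 1 alternative, such as leaving out ND mouse 3, CLE mouse 4 or 11, or LU mouse 2 (-0.24, -0.0049, -0.16 and -0.028). *Zfp36* (chromosome 7, 28376784 to 28379255, minus strand) was 75.6, 44.5 and 55.4 FPKM in the ND mice, 53.4, 51.0 and 50.1 in the HFD mice, 51.8, 73.5 and 70.7 in the CLE mice and 65.8, 61.8 and 54.6 in the LU mice. The LU mice lay above the HFD mice, the other HFD comparisons overlapped, and no difference was called (-0.15, 0.32 and 0.23 for the same 3 comparisons). Its value between HFD and ND was 0.051 without ND mouse 2. An antisense gene, *Gm44710*, lies over *Zfp36* in the annotation.

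**Figure D2:**
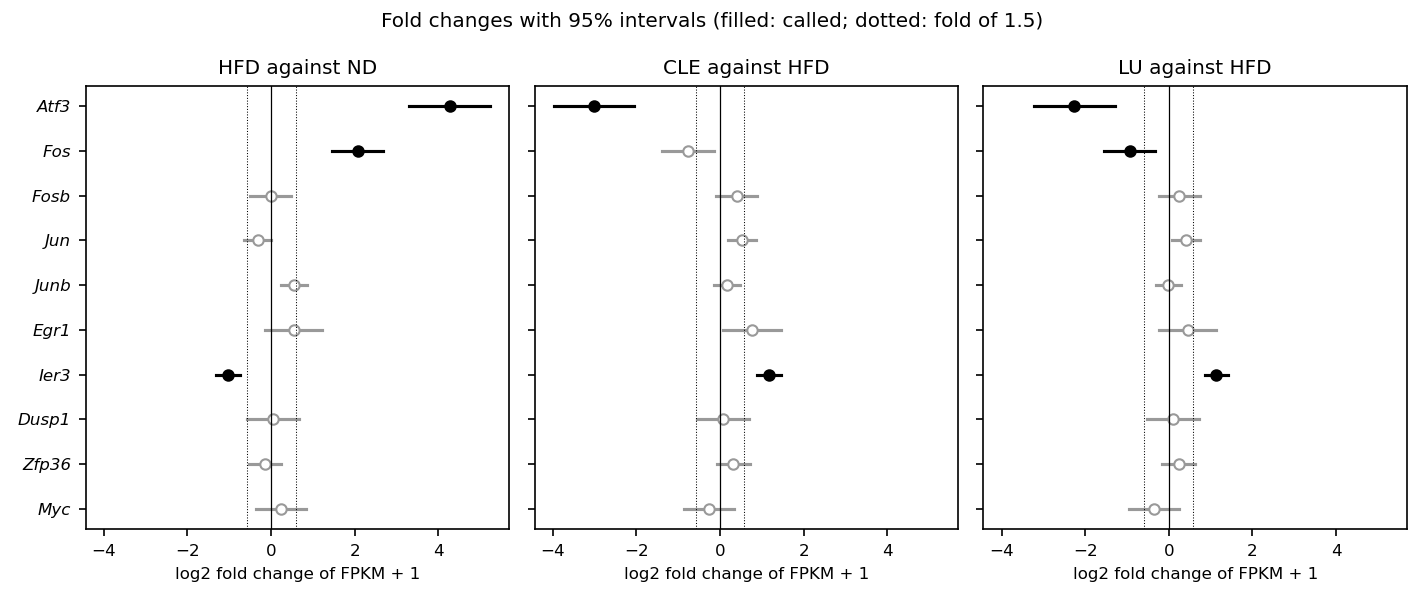
Log2 fold change of FPKM + 1 (x axis) with its 95% interval for each gene (y axis), in the contrasts HFD against ND, CLE against HFD and LU against HFD. Filled points passed the adjusted p and the fold of 1.5 (dotted lines), which were *Atf3*, *Fos* and *Ier3* in the left and right panels and *Atf3* and *Ier3* in the middle one.

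Between CLE and LU, the log2 fold changes of the 10 genes ran from -0.74 (*Atf3*) to 0.32 (*Egr1*, 95% interval -0.36 to 1.00). In limma, 0 of the 10 had even an unadjusted p under 0.05, while 672 of all genes tested did, and 0 were called under each of the 26 alternatives. The intervals of *Atf3*, *Fos*, *Egr1*, *Dusp1*, *Myc* and *Fosb* each reached beyond a fold of 1.5 in at least 1 direction. Differences of that size could therefore not be excluded for these genes with 3 mice a group.

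The members varied more from mouse to mouse within a group than most genes. The pooled SD of log2(FPKM + 1) within groups was 0.640 for *Atf3*, 0.448 for *Egr1*, 0.403 for *Dusp1*, 0.401 for *Fos* and 0.386 for *Myc*, at or above the 96.0th percentile of all genes tested, whose median was 0.149. It was 0.317 for *Fosb*, 0.244 for *Zfp36*, 0.198 for *Jun* and 0.183 for *Junb*, and the smallest was that of *Ier3*, at 0.164 (57.7th percentile). The HFD mice were the closest to each other of the 4 groups for 7 of the 10 genes, among them *Fos*, *Dusp1*, *Zfp36* and *Jun* with SDs of 0.109, 0.0883, 0.0463 and 0.0854. This was so for genes at large too, whose median SD was 0.1003 in HFD, 0.148 in ND, 0.138 in CLE and 0.128 in LU.

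The genes deviated together in the same mice. ND mouse 3 was below its group mean in 10 of 10 genes and the lowest of its group in 9, with a median deviation of -0.32 on the log2 scale. CLE mouse 2 was below its group mean in 9 of 10 (median -0.33), while CLE mouse 11 was above it in 9 (median 0.29) and ND mouse 2 in 9 (median 0.21). LU mouse 2 was above its group mean in 8 of 10 (median 0.18) and HFD mouse 12 in 8 (median 0.072). Of all genes tested, 46.0% were above the group mean in ND mouse 3, 40.04% in CLE mouse 2, 55.5% in CLE mouse 11 and 52.2% in ND mouse 2, with medians between -0.031 and 0.020. Deviations within a group sum to 0, so its mice are not independent in this respect.

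**Figure D3:**
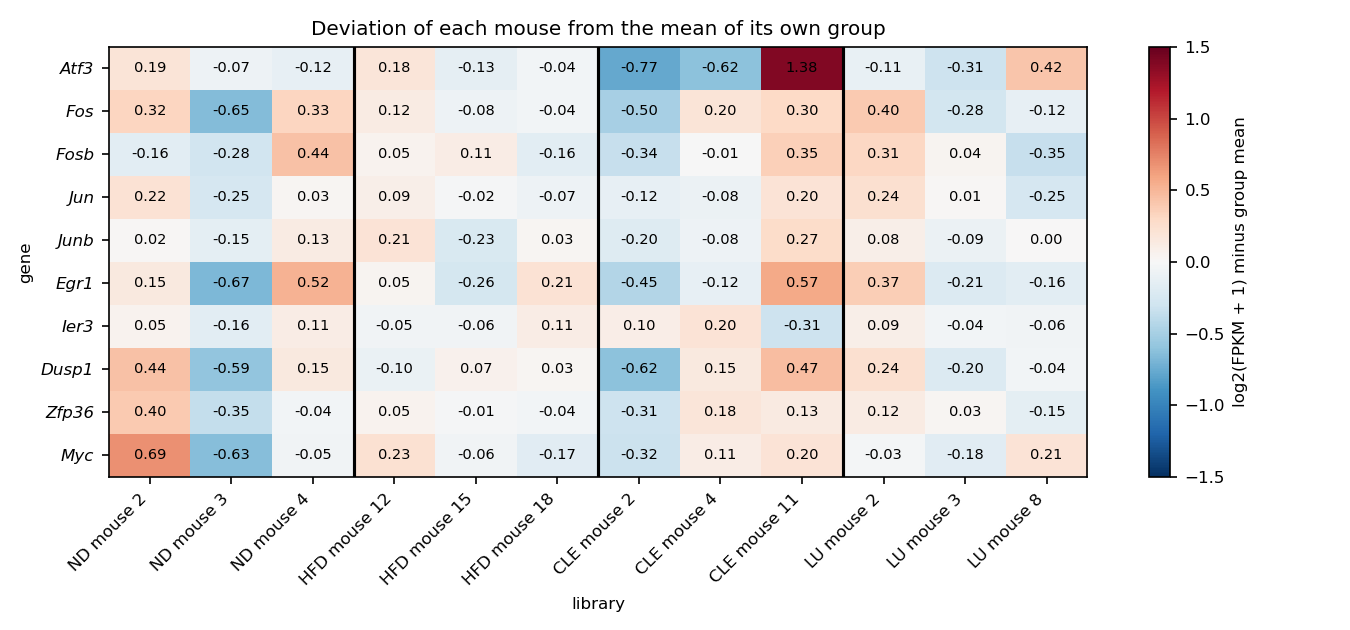
Deviation of log2(FPKM + 1) of each mouse (x axis, grouped by diet) from the mean of its own group, for each gene (y axis), with the value in each cell and colour from -1.5 (blue) to 1.5 (red). The columns of ND mouse 3 and CLE mouse 2 are mostly blue and those of ND mouse 2 and CLE mouse 11 mostly red, and the deepest value is that of *Atf3* in CLE mouse 11 (1.38).

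A list of 37 other immediate early genes, of which 35 were tested, gave values for the same mice that the members do not enter. CLE mouse 2 was below its group mean in 33 of 35, ND mouse 3 in 28, and CLE mouse 11 and ND mouse 2 were above it in 31 each. LU mouse 2 was above it in 17 of 35, with a median of -0.0058, so the pattern of the members in this mouse was not seen in the longer list. The summed level of 7 endothelial markers was lowest of its group in ND mouse 3 (243 FPKM, beside 351 and 393) and in CLE mouse 2 (298, beside 403 and 429). The 4 erythrocyte markers summed to 1978 FPKM in ND mouse 3, beside 733 and 493 in the other ND mice. The 3 skeletal muscle markers found (*Ckm*, *Myh4* and *Mylpf*) summed to 12.4 FPKM in CLE mouse 11, beside 0.280 and 0.343 in the other CLE mice. The skeletal muscle sum of HFD mouse 12 was likewise the highest of its group, and none of these 3 genes passed the filter. Of the libraries with the letter R, ND mouse 3 and LU mouse 2 deviated in opposite directions. Among the 10 members, ND mouse 4 was above its group mean in 7 (median 0.12) and CLE mouse 4 in 5 (median 0.052). The part of these measures and of the letter R in the deviations was not tested.

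Markers of macrophages moved with *Atf3*. The summed level of 10 macrophage markers (*Cd68*, *Adgre1*, *Csf1r* and others) ran from 348 to 522 FPKM in ND, 2512 to 2882 in HFD, 614 to 926 in CLE and 997 to 1132 in LU. All 10 were called higher in HFD than in ND and lower in CLE and in LU than in HFD, with median log2 fold changes of 2.52, -1.80 and -1.44. CLE mouse 11, which had the highest *Atf3* of its group, also had the highest macrophage sum of its group (926, beside 614 and 717), and so did LU mouse 8 (1132, beside 1006 and 997). In the ND group the order was not kept, since mouse 2 had the highest *Atf3* (3.25) and the lowest macrophage sum (348). The 8 adipocyte markers summed to 26158 to 27677 FPKM in ND, 15740 to 17723 in HFD, 23316 to 25086 in CLE and 21829 to 26876 in LU. Of these 8, 5 were called lower in HFD than in ND, whereas *Lep*, the leptin gene, went the other way (248 to 1245 FPKM, log2 fold change 2.34) and was called lower in CLE and LU than in HFD. The 7 endothelial markers summed to 243 to 393 FPKM in ND, 192 to 317 in HFD, 298 to 429 in CLE and 335 to 410 in LU. Of these 7, 1 was called lower in HFD than in ND. Compared with HFD, 3 were called higher in CLE and 4 in LU. In bulk tissue, more cells of a type and more RNA per cell cannot be told apart, and the part of these cells in the results for *Atf3*, *Fos* and *Ier3* was not tested.

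**Figure D4:**
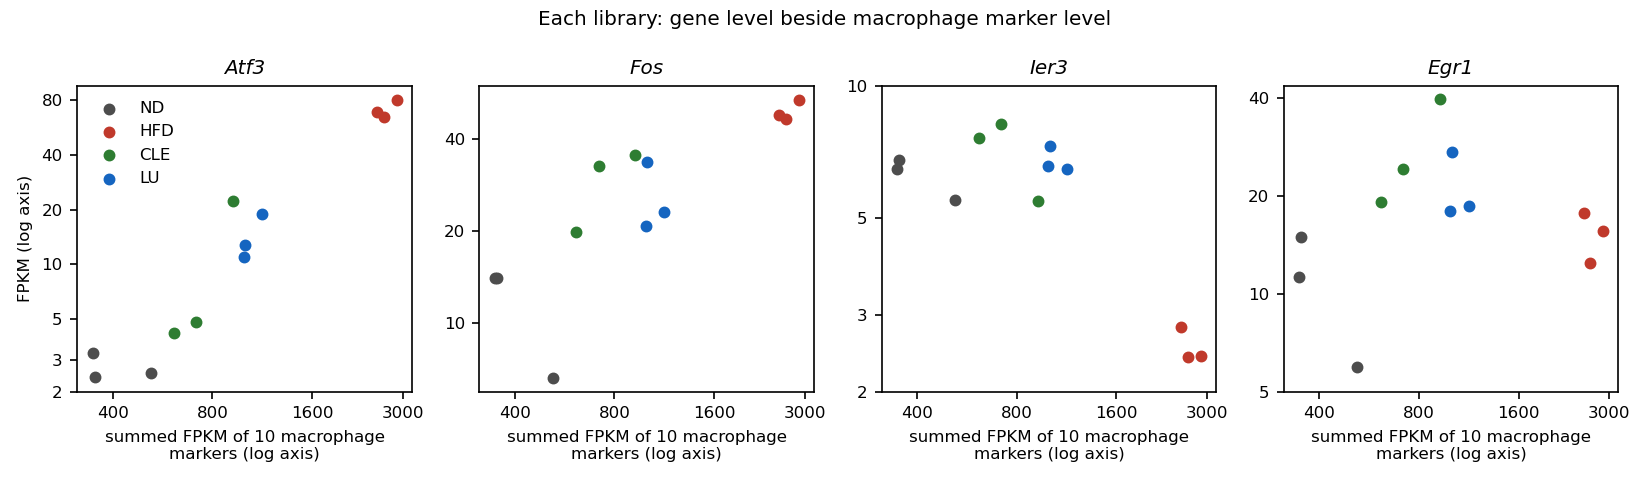
FPKM of *Atf3*, *Fos*, *Ier3* and *Egr1* (y axis, log) against the summed FPKM of 10 macrophage markers (x axis, log), 1 point per library, coloured by group. The HFD libraries (2512 to 2882 on the x axis) stand apart from the others, with the highest *Atf3* and *Fos* and the lowest *Ier3*, while *Egr1* is highest in CLE mouse 11 (39.6 FPKM) at a macrophage sum of 926.

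The other markers were lower or more scattered. The 4 neutrophil markers summed to 6.90 to 15.7 FPKM in ND, 73.9 to 123 in HFD, 14.4 to 28.4 in CLE and 22.9 to 55.1 in LU. Most of this sum was *S100a8* (100.9 FPKM in HFD). *S100a8* and *Csf3r* were called higher in HFD than in ND (log2 fold changes 3.26 and 1.32). Both were called lower than in HFD in CLE (-2.40 and -1.07) and in LU (-1.62 and -0.78). In contrast, *S100a9* was called lower in HFD than in ND (-0.79, adjusted p = 0.0299), and *Retnlg* was under 1 FPKM in every library. The 4 erythrocyte markers summed to 493 to 1978 FPKM in ND and 162 to 265 in HFD, and all 4 were called lower in HFD. The 6 mesothelial markers summed to 2.32 to 59.7 FPKM, the 3 B cell markers to 0.259 to 4.50 FPKM, and the epididymal gene *Lcn5* was listed at 0 in every library.

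The genes most like each member over the 12 libraries, by Pearson's r of log2(FPKM + 1), were *Kcnn4* (r = 0.997), *Arhgap25* (0.996) and *Ctsk* (0.995) for *Atf3*. For *Fos* they were *Mgat1* (0.967), *Msn* (0.962) and *Usp25* (0.961), and for *Ier3* *Idh2* (0.970), *Mst1r* (0.969) and *Peg3* (0.965). For *Egr1* they were *Nhsl2* (0.947), *Nrp1* (0.935) and *Crim1* (0.932), and for *Dusp1* *Klc1* (0.929), *Cfap43* (0.913) and *Unk* (0.911). For *Jun*, *Triobp*, *Kitl* and *Amigo2* had r = 0.914, 0.913 and 0.913, for *Junb*, *Wdr44*, *Mex3b* and *Tlr3* had 0.932, 0.908 and 0.899, and for *Zfp36*, *Coq10b*, *Ugcg* and *Dhx37* had 0.920, 0.916 and 0.911. For *Myc*, *Dis3*, *Capn15* and *Hirip3* had r = 0.915, 0.891 and 0.886, and for *Fosb*, *Cmpk2*, *Zfp518b* and *Zfp69* had 0.838, 0.805 and 0.791. No gene among these 30 appeared for more than 1 member. The points share libraries, and for *Atf3*, *Fos* and *Ier3* they fall into diet groups, which alone raise r.

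The longer list of other immediate early genes was split in direction. Between HFD and ND, 5 of 35 were called higher and 5 lower, beside 14.9% and 10.8% of all genes tested. The other 25 were not called, and the median log2 fold change of the list was -0.15, beside -0.019 of all genes. The largest rise was that of *Egr2*, a zinc finger relative of EGR1, which was 0.467, 0.666 and 0.539 FPKM in the ND mice and 19.0, 11.7 and 17.5 in the HFD mice (log2 fold change 3.43, SE 0.40, adjusted p = 3.38e-05). It was followed by the stress gene *Gadd45b* (1.46) and the kinase gene *Plk2* (1.33). The largest falls were those of *Gadd45g*, a relative of *Gadd45b* (-2.03, from 119.7 to 27.9 FPKM), the antiproliferative gene *Btg1* (-0.98) and the factor *Klf2* (-0.96). Compared with HFD, 6 were called higher and 2 lower in CLE, beside 6.33% and 10.2% of all genes (median 0.18, beside 0.0051). In LU, 5 were called higher and 2 lower, beside 4.79% and 7.65% of all genes (median 0.21, beside 0.031). *Ccn1*, a matricellular protein gene, was higher in both (1.09 and 1.00), as was *Gadd45g* (0.95 and 1.52), whereas *Egr2* (-2.22 and -1.80) and *Plk2* (-0.98 and -1.03) were lower in both. *Klf4* was also higher with CLE (0.82), and *Btg1* with LU (0.60). *Egr2* was 1.72, 1.32 and 6.27 FPKM in the CLE mice and 3.02, 2.47 and 6.93 in the LU mice, so that CLE mouse 11 and LU mouse 8 were again the highest of their groups. *Egr2* therefore lay in the order HFD, LU, CLE, ND of group means, as *Atf3* did, and not in that of *Egr1*.

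Between HFD and ND, where 25.6% of all genes were called, 3 of the 23 other AP-1 and ATF/CREB family genes were called higher and 0 lower (median 0.15). Among them were the endoplasmic reticulum stress sensor *Atf6* (0.66) and *Batf* (0.64). Compared with HFD, 1 gene of this list was called higher and 1 lower in CLE (median -0.11), and likewise in LU (median -0.021), and the higher one was *Mafk*, a small MAF gene, in both (0.96 and 0.78). Of the 14 tested MAP kinase feedback inhibitors other than *Dusp1*, 3 were called higher with the HFD, the ERK phosphatase *Dusp5* (1.26), *Dusp9* (1.00) and *Spred1* (0.73), and *Dusp4* was called lower (-1.501, from 40.6 to 13.5 FPKM). Compared with HFD, *Dusp5* was lower in CLE (-1.03) and LU (-0.66), and in CLE *Spred1* was lower (-0.64) and *Dusp4* higher (0.98). The list medians in these 3 comparisons were 0.11, 0.33 and 0.18. Of all genes tested, 16.5% were called between CLE and HFD and 12.4% between LU and HFD.

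Of the 9 AU-rich element binding proteins other than *Zfp36*, the RNase gene *Zc3h12a* was called higher with the HFD (0.92), 0 were called lower, and 0 were called in CLE or LU against HFD (medians -0.0053, -0.042 and -0.10). In the MYC network, 11 of 13 genes were tested and *Mycl*, a MYC paralog, was the only one called. It fell with the HFD from 41.7 to 2.49 FPKM (log2 fold change -3.57, SE 0.32, adjusted p = 5.44e-06) and was higher in CLE (2.40, 17.7 FPKM) and LU (1.67, 11.1 FPKM) than in HFD, with list medians of -0.0037, -0.034 and -0.070. Of the 26 tested upstream kinases and serum response factors, 4 were called higher and 1 lower with the HFD (median 0.11). The largest rises were those of the ERK-activated kinase *Rps6ka1* (1.58), the SRF coactivator *Mrtfa* (1.28) and the p38 kinase kinase *Map2k6* (1.07), and *Mapk12* fell (-0.70). The same 3 were called lower and *Mapk12* higher in CLE (-1.06, -0.98, -1.03 and 0.75) and in LU (-0.89, -0.65, -0.74 and 0.68) than in HFD (medians -0.0095 and -0.078). Beside the counts of these lists, 25.6% of all genes were called between HFD and ND, 16.5% between CLE and HFD and 12.4% between LU and HFD.

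**Figure D5:**
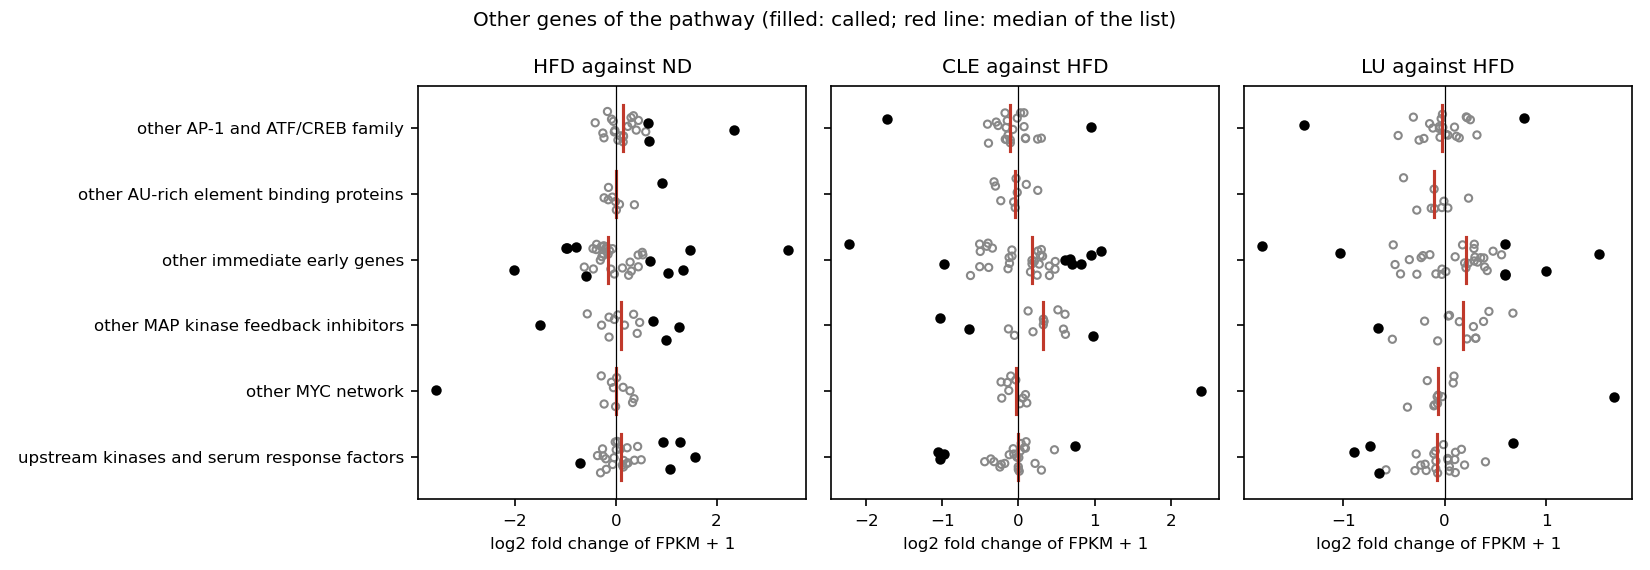
Log2 fold change of FPKM + 1 (x axis) of the tested genes of 6 lists (y axis, with random vertical spread) in the contrasts HFD against ND, CLE against HFD and LU against HFD. Filled points were called and the red line is the median of the list; most genes lie between -1 and 1, with *Egr2* (3.43) far to the right and *Mycl* (-3.57) far to the left in the HFD against ND panel.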

How the data were processed

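Total RNA of eWAT was sequenced after poly(A) selection (paired-end reads, TruSeq kit). The authors deposited FPKM values for 152210 transcripts, made with CASAVA 1.8.2, TopHat2 2.0.12, Bowtie2 2.2.3 and Cufflinks 2.2.1 per the processing notes; the build was not given in the sources used here, but 87.6% of the annotated transcripts had the same ends as in GENCODE M21 (GRCm38). Cufflinks shares fragments among isoforms, which moves single-transcript values; counts were not used here. The column of ND mouse 4 has a header that does not spell its group and was assigned by elimination. Columns of the authors' own comparisons and 3 columns that match no sample were not used.

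Annotated transcripts, identical assemblies and new isoforms sharing a junction were summed per gene (22923 genes); the rows left out held 65.8 to 92.9% of the column totals. A gene was kept where 3 or more libraries had an FPKM of 1 or higher (12766 genes). The model was fitted by limma 3.58.1 (R 4.3.3) to log2(FPKM + 1) of the 12 libraries together, with 6 contrasts and Benjamini-Hochberg adjustment over all genes tested. This scale understates the change of low genes. The scripts were tested on simulated data. Calls needed an adjusted p under 0.05 and a fold over 1.5. Because the FPKM table holds no counts, the count test of the study was not repeated. Named genes were the members, up to 3 called genes in each direction per list and contrast, and the 3 most correlated genes per member; *Egr2* levels in CLE and LU were added after their values were seen. The members and lists were chosen with earlier results of these data known. Numbers of mice serve as names only. The p-values measure the spread between mice. The result of 1 listed gene is not reported here. The alternatives were other pseudocounts, filters, scalings, fits and gene values, and leaving out each library.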

Additional observations from a re-analysis of the deposited data

How the results depend on the processing

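The number of the 10 genes called moved by over 1.5 times only in the contrasts with ND, apart from leaving out libraries. In CLE against ND it was 3, beside 2.92% of all genes tested. It was 0 with no filter on low values (0.266% of all genes) and in a fit of the 2 groups alone (0%). It was also 0 with only the libraries without the letter R (1.42%), and 1 with the transcript of the highest mean (1.72%). In LU against ND it was 2, beside 6.60% of all genes. It was 0 with no filter (2.38%), 1 in a fit of the 2 groups alone (5.56%) and 0 without the letter R (5.12%). In these settings the share called thus fell over all genes too. When each library was left out in turn, the count ran from 3 to 4 in HFD against ND, 2 to 3 in LU against HFD and 0 to 0 in CLE against LU. With all libraries kept, 25.6%, 12.4% and 0.00783% of all genes were called in these contrasts. Their shares with a library left out are not given here, so these counts cannot be set beside them. In CLE against HFD the count ran from 2 to 4, with 4 without ND mouse 3 (16.6% of all genes) or CLE mouse 2 (15.5%). In CLE against ND it ran from 0 to 3. It was 0 without ND mouse 2 (0.971%), ND mouse 3 (1.98%) or CLE mouse 11 (1.11%), and 1 without CLE mouse 4 (1.79%). In LU against ND it ran from 0 to 4. It was 0 without LU mouse 8 (4.48%), 1 without ND mouse 3 (6.14%) or LU mouse 2 (5.85%), and 4 without ND mouse 4 (7.55%). The cause was not tested, except that these fits held fewer mice.

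Signs turned only for values that were not called. *Fosb* between HFD and ND was 0.026 with a pseudocount of 0.1, 0.14 with the letter R as a covariate and 0.15 with only the libraries without it. With only the libraries without the letter R, *Dusp1* was -0.39 and *Myc* -0.45 between HFD and ND, and *Dusp1* was -0.0049 between CLE and HFD and -0.028 between LU and HFD. *Dusp1* between CLE and HFD was -0.049 with the transcript of the highest mean and -0.037 without assembled isoforms. *Junb* between LU and HFD was 0.0061 with quantile normalization and 0.013 with array weights. With libraries left out in turn, the log2 fold change between HFD and ND ran from -0.15 to 0.21 for *Fosb*, -0.24 to 0.27 for *Dusp1*, -0.33 to 0.051 for *Zfp36* and -0.080 to 0.58 for *Myc*, that of *Dusp1* from -0.16 to 0.38 in CLE and -0.028 to 0.19 in LU against HFD, and that of *Junb* from -0.13 to 0.092 in LU against HFD.

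Mouse numbers are shared between ND and CLE (2 and 4), ND and LU (2 and 3) and CLE and LU (2 alone, too few for a block). The deviations of same-numbered mice correlated at -0.099 to 0.19, so the numbers were not taken as pairs. With the mouse number as a replicate block, 0 of the 10 genes were called in CLE against ND, beside 0.00783% of all genes. In LU against ND, 3 were called with the block, and 2 without it (6.6% of all genes). The share of all genes called with the block in LU against ND is not given here, so the 3 cannot be set beside it. HFD shares no number with another group, so no such fit was made for it. Depth was unknown, and *Fosb*, under 1 FPKM in most libraries, limits what can be said of it.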
